A study of Mus musculus with 18 samples.

Results

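*Cdkn1a*, *Btg2*, *Plk2*, *Gadd45a*, *Zmat3*, *Phlda3* and *Zfp365* are 7 known targets of the transcription factor TRP53 whose products hold back the cell cycle or cell growth. They were chosen by name and found by Ensembl identifier as 7 of the 51912 genes in the deposited table, and all 7 passed the filter on low counts. RNA-seq was carried out on primary mouse embryonic fibroblasts (MEFs), the cells that grow out of dissociated mid-gestation embryos once the head, heart and liver are removed. The embryos came from crosses of *Pole4*+/- *Trp53*+/- mice on a C57BL/6 background, and every culture was kept in 5% oxygen and 15% serum and sampled at passage 1. MEFs that were *Pole4*+/+ or *Pole4*-/- were each taken as *Trp53*+/+, *Trp53*+/- and *Trp53*-/-, which makes 6 genotypes, so that each gene could be followed over 2, 1 and 0 wild-type copies of *Trp53* in both *Pole4* backgrounds. *Pole4* encodes an accessory subunit of DNA polymerase epsilon, the enzyme that copies the leading strand. Each genotype had 3 libraries. The labels do not say that these came from separate embryos, so the p-values measure only the spread between these libraries, which may in part be technical.

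TRP53 is kept scarce in unstressed cells by the ubiquitin ligase MDM2 and accumulates when DNA is damaged or replication is disturbed. It binds response elements made of a pair of decamers in or near its target genes and raises their transcription. Its best known arrest target is *Cdkn1a*, whose product p21 binds and inhibits cyclin-dependent kinases and so blocks entry into S phase; the other genes here act beside it at other points.

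The libraries held from 9535971 to 35319918 expected counts, with a median of 22781543, and between 0.968% and 42.5% of them fell on ribosomal RNA genes. That share was 24.7% to 30% in *Pole4*-/- *Trp53*-/- libraries, against 7.11% to 42.5% in *Pole4*-/- *Trp53*+/+ and 3.75% to 15.5% in *Pole4*-/- *Trp53*+/- libraries. In *Pole4*+/+ libraries it was 5.81% to 11.2% with *Trp53*+/+, 0.968% to 26.8% with *Trp53*+/- and 1.82% to 13.1% with *Trp53*-/-. With the ribosomal RNA genes taken out, edgeR called as many of the 7 genes in every comparison as with them. Levels are given as CPM, counts per 1e+06 counts of the library, after TMM scaling, the trimmed mean method of edgeR that sets libraries to a common scale. Summed over 9 fibroblast markers, collagens and *Pdgfra* among them, the libraries held from 7990 to 19100 CPM, whereas 8 macrophage markers summed to at most 27.7 CPM and 6 erythroid markers to at most 1.86 CPM. By *Xist* and Y-linked transcripts, 7 of the 18 libraries were male. All 3 *Pole4*+/+ *Trp53*+/- libraries were male, while all *Pole4*+/+ *Trp53*+/+ and *Pole4*+/+ *Trp53*-/- libraries were female, so that sex and a single lost *Trp53* copy cannot be told apart in *Pole4*+/+ MEFs other than through a sex term fitted over all genotypes. *Pole4*+/+ *Trp53*-/- replicate 1 stood apart, with 9.08 CPM of Y-linked transcripts beside 1080 CPM of *Xist*, where no other female library exceeded 0.337 CPM of the former. Where leaving it out changed a call or moved a called value by over 1.5 times, the value without it is given as well.

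*Trp53* and *Pole4* transcripts were measured as a check of the genotypes. *Trp53* fell from 90.8 ± 4.81 CPM (SD, n = 3) in *Pole4*+/+ *Trp53*+/+ to 10.7 ± 1.83 in *Pole4*+/+ *Trp53*-/- MEFs, and from 69.1 ± 4.40 to 11.4 ± 1.15 in *Pole4*-/- MEFs. The *Trp53*+/- libraries lay between, at 58.1 ± 1.70 CPM in *Pole4*+/+ and 52.4 ± 3.67 in *Pole4*-/- MEFs. *Pole4* was at 20 ± 3.41 CPM in *Pole4*+/+ *Trp53*+/+ and at 10.3 ± 0.986 in *Pole4*-/- *Trp53*+/+ MEFs, and every *Pole4*-/- library was below every *Pole4*+/+ library of the same *Trp53* genotype. *Pole4*-/- libraries thus kept 50.9% to 52.3% of the *Pole4* transcript. The difference was called by edgeR with both *Trp53* copies (adjusted p = 0.022, lost on leaving out any of 4 of the 6 libraries and, at 0.122, with sex as a term) but not with 1 copy (adjusted p = 0.26) or none (adjusted p = 0.3, and 0.00309 without *Pole4*+/+ *Trp53*-/- replicate 1), while DESeq2 and limma voom called all 3.

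Because TRP53 acts through response elements, the sequence around the starts of the 7 genes was searched for such elements, defined as a pair of decamers matching the TRP53 consensus with at most 2 mismatches in all and a spacer of at most 3 bases, on both strands. Promoter windows of RefSeq (GRCm38.p6), from 250 bases before to 50 after each annotated start, were given for 6 of the 7 genes. A match was found in 444 of 32851 windows of all genes (1.35%), in 6 of the 55 windows given for 39 of 48 other TRP53 targets and in 2 of the 7 windows of the genes described here, those of *Zfp365* and of the upstream of the annotated *Cdkn1a* starts. The windows are printed without their last 50 bases, 5′ to 3′ on the strand of the gene, with the pair of decamers in capitals, because they hold the matches closest to a start. For *Plk2*, whose window held none, the match in its annotated transcripts (GENCODE M21, bases 64 to 85 of Plk2-201) is shown instead, with decamers in capitals and the spacer in lower case.
Cdkn1a, chr17:29090729-29090978, plus strand: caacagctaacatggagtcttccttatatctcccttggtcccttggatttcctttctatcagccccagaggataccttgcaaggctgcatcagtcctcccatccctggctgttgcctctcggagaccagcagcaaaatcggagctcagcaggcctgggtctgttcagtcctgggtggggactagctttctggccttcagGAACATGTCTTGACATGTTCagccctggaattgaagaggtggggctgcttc
Zfp365, chr10:67912663-67912912, minus strand: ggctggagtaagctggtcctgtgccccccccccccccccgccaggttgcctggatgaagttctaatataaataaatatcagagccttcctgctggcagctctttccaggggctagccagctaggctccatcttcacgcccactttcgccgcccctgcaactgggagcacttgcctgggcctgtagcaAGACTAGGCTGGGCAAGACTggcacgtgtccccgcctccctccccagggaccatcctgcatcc
Plk2, chr13:110395109-110395130, plus strand: GGGCTAGCCCggACGCTTGTCC
The *Cdkn1a* element lay from 51 to 32 bases before that start with 1 mismatch, and the *Zfp365* element from 63 to 44 bases before its start with 2 mismatches. The *Plk2* element had 1 mismatch and a spacer of 2 bases. These are matches of letters and say nothing of binding in these cells, and the windows of *Btg2*, *Gadd45a* and *Phlda3* held no such match.

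The first question was which of these genes depend on *Trp53* in unperturbed MEFs. Without *Trp53*, *Cdkn1a*, *Btg2*, *Zmat3*, *Phlda3* and *Zfp365* fell in both *Pole4* backgrounds, by between 2.77-fold (*Zfp365*, *Pole4*+/+) and 52.7-fold (*Cdkn1a*, *Pole4*-/-), whereas *Plk2* and *Gadd45a* did not pass the test in either. In *Pole4*+/+ MEFs 5 of the 7 genes were called lower and none higher, where 2.37% of the 15710 genes tested were called lower and 4.6% in either direction. The count in *Pole4*-/- MEFs was again 5 lower and none higher, but there 20.8% of all genes were called lower, and 42.6% in either direction. The median log2 fold change of the 7 genes was -1.77 in *Pole4*+/+ and -2.14 in *Pole4*-/- MEFs, beside 0.032 and -0.018 over all genes tested. The comparisons used edgeR's quasi-likelihood test over all 18 libraries, with a gene called at a Benjamini-Hochberg adjusted p under 0.05.

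**Figure D1:**
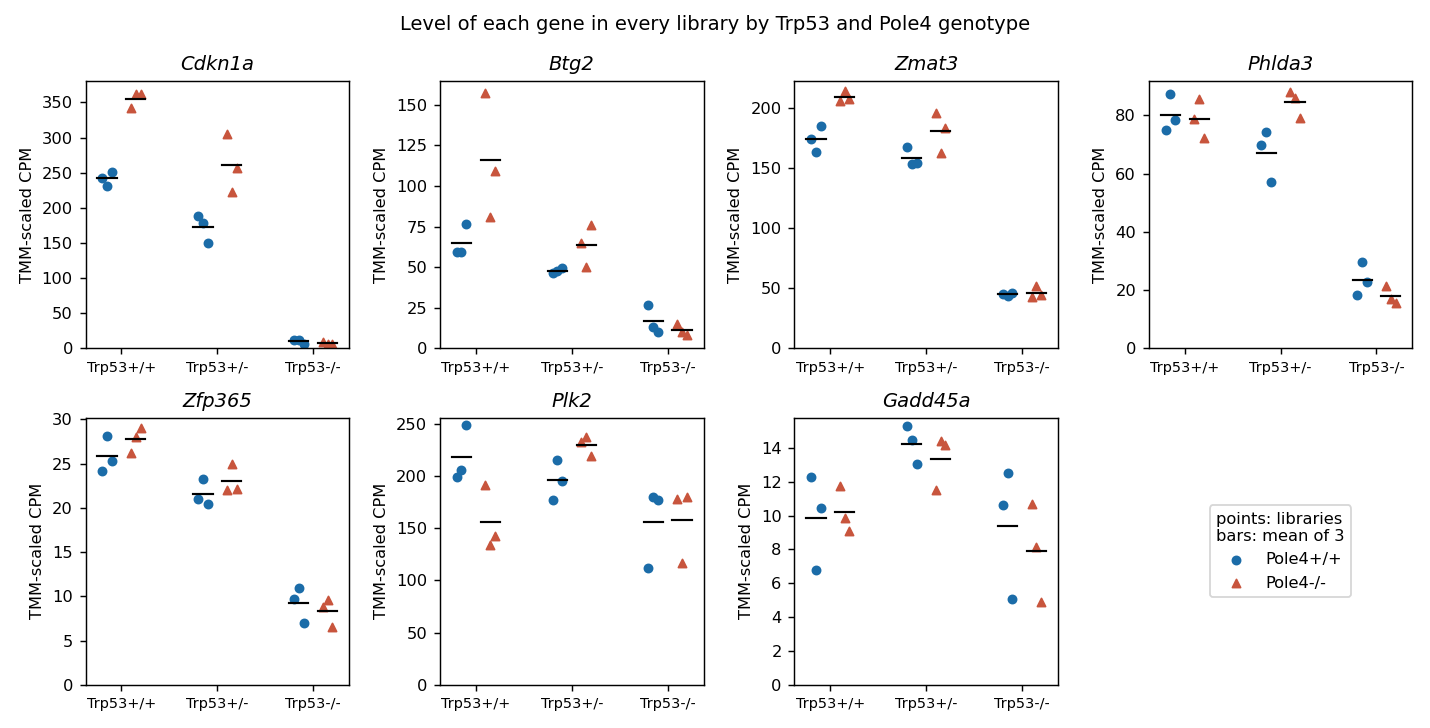
Level of each gene (TMM-scaled CPM, axes from 0) in each of the 18 libraries by *Trp53* genotype, with circles for *Pole4*+/+ and triangles for *Pole4*-/- MEFs and bars for the mean of 3 libraries. For *Cdkn1a*, *Btg2*, *Zmat3*, *Phlda3* and *Zfp365* all *Trp53*-/- libraries lie below all others, while those of *Plk2* and *Gadd45a* overlap with *Trp53*+/+ libraries in at least 1 background.

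*Cdkn1a* (ENSMUSG00000023067, chr17:29090976-29100727, plus strand), the gene of the CDK inhibitor p21, showed the steepest dependence. In *Pole4*+/+ MEFs its 3 libraries held 243, 232 and 251 CPM with both *Trp53* copies, 188, 179 and 149 CPM with 1 copy, and 11.8, 12 and 5.66 CPM with none. Values in *Pole4*-/- MEFs were 342, 361 and 363 CPM, then 305, 222 and 256 CPM, and then 8.80, 6.07 and 5.17 CPM. The 3 *Trp53* genotypes did not overlap in either background, and the *Trp53*-/- libraries kept only a few percent of the wild-type level. The log2 fold change of *Trp53*-/- against *Trp53*+/+ was -4.59 (SE 0.24, edgeR adjusted p = 1.06e-08) in *Pole4*+/+ and -5.72 (SE 0.26, adjusted p = 1.47e-09) in *Pole4*-/- MEFs, which left 4.16% and 1.90% of the level. An unnamed antisense gene model overlaps *Cdkn1a* in the annotation, and since the sources used here do not state whether counting used strand, reads of both strands cannot be told apart.

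*Btg2* (ENSMUSG00000020423, chr1:134075170-134079120, minus strand) encodes an antiproliferative protein of the BTG/TOB family that recruits the CCR4-NOT deadenylase to messages. It was the most variable of the genes that fell. In *Pole4*+/+ MEFs it was at 59.2, 59.3 and 76.8 CPM with both *Trp53* copies, at 46.4, 47.3 and 49.6 with 1 copy and at 26.9, 13.2 and 9.78 with none. In *Pole4*-/- MEFs it was at 157, 80.9 and 110 CPM, then at 64.9, 50.3 and 75.7, and then at 14.8, 10 and 8.29. The *Trp53* genotypes did not overlap in either background, but the *Pole4*-/- *Trp53*+/+ libraries spread over 80.9 to 157 CPM, with a coefficient of variation of 33.3%. The log2 fold change without *Trp53* was -1.94 (SE 0.33, edgeR adjusted p = 0.0032) in *Pole4*+/+ and -3.39 (SE 0.35, adjusted p = 9.54e-06) in *Pole4*-/- MEFs. The *Pole4*+/+ call was lost when libraries were scaled by their totals alone (adjusted p = 0.0585) and when only the genotypes compared were fitted (adjusted p = 0.105). Without *Pole4*+/+ *Trp53*-/- replicate 1, the highest of its group, it was -2.51 (adjusted p = 0.000347).

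*Zmat3* (ENSMUSG00000027663, chr3:32334792-32366014, minus strand), an RNA-binding zinc finger protein that regulates splicing and message stability, gave the most precise values. With both *Trp53* copies it was at 175, 163 and 185 CPM in *Pole4*+/+ and at 206, 214 and 208 CPM in *Pole4*-/- MEFs. Without *Trp53* it was at 45.1, 43.5 and 45.6 CPM in *Pole4*+/+ and at 42.7, 51.5 and 44.3 CPM in *Pole4*-/- MEFs. The 6 *Trp53*-/- libraries thus lay between 42.7 and 51.5 CPM, and 25.6% and 22% of the *Trp53*+/+ level remained. The log2 fold changes were -1.96 (SE 0.089, edgeR adjusted p = 2.15e-09) in *Pole4*+/+ and -2.18 (SE 0.090, adjusted p = 9.76e-10) in *Pole4*-/- MEFs.

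*Phlda3* (ENSMUSG00000041801, chr1:135766119-135769136, plus strand) encodes a small pleckstrin homology domain protein that competes with AKT for membrane lipids and so restrains growth signalling. It was at 75.0, 87.2 and 78.3 CPM in *Pole4*+/+ *Trp53*+/+ and at 18.2, 29.6 and 22.7 CPM in *Pole4*+/+ *Trp53*-/- MEFs. Its values in *Pole4*-/- MEFs were 78.8, 85.7 and 72.1 CPM with both copies and 21.2, 17.0 and 15.4 CPM with none. The groups lay far apart in both backgrounds, with log2 fold changes of -1.77 (SE 0.16, edgeR adjusted p = 4.89e-06) and -2.14 (SE 0.16, adjusted p = 3.6e-07).

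*Zfp365* (ENSMUSG00000037855, chr10:67886103-67912662, minus strand), a zinc finger gene linked to genome stability and the least expressed of the 5 per length of transcript, changed least among them. It was at 24.2, 28.1 and 25.3 CPM in *Pole4*+/+ *Trp53*+/+ and at 9.71, 11 and 6.95 CPM in *Pole4*+/+ *Trp53*-/- MEFs. In *Pole4*-/- MEFs it was at 26.2, 28.0 and 29.0 CPM with both copies and at 8.80, 9.58 and 6.56 CPM with none. The groups did not overlap, and the log2 fold changes were -1.47 (SE 0.15, edgeR adjusted p = 2.38e-05) in *Pole4*+/+ and -1.73 (SE 0.15, adjusted p = 2.03e-06) in *Pole4*-/- MEFs.

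*Plk2* (ENSMUSG00000021701, chr13:110395046-110400844, plus strand) encodes a polo-like kinase that acts in centriole duplication and the stress response. Without *Trp53* it was at 112, 180.0 and 176 CPM in *Pole4*+/+ MEFs, below the 198, 206 and 249 CPM of *Trp53*+/+ libraries, but the difference did not pass the test (log2 fold change -0.48, SE 0.19, edgeR adjusted p = 0.174). In *Pole4*-/- MEFs the *Trp53*-/- libraries were at 178, 117 and 180 CPM and overlapped with the *Trp53*+/+ libraries at 192, 134 and 142 CPM. The log2 fold change there was 0.02, with a 95% interval from -0.39 to 0.43. A loss of the size seen for *Zfp365* lay outside both intervals.

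*Gadd45a* (ENSMUSG00000036390, chr6:67035096-67037457, minus strand), a stress-induced gene whose product binds PCNA and CDK1, was low throughout, between 4.91 and 15.3 CPM. In *Pole4*+/+ MEFs it was at 12.3, 6.77 and 10.4 CPM with both *Trp53* copies and at 10.6, 12.5 and 5.09 CPM with none. For *Pole4*-/- MEFs the values were 11.8, 9.85 and 9.10 CPM against 10.7, 8.12 and 4.91 CPM. The groups overlapped in both backgrounds, with log2 fold changes of -0.05 (95% interval -0.68 to 0.58) and -0.37 (-1.02 to 0.27). Its antisense neighbour *E230016M11Rik* had at most 30 counts in any library.

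**Figure D2:**
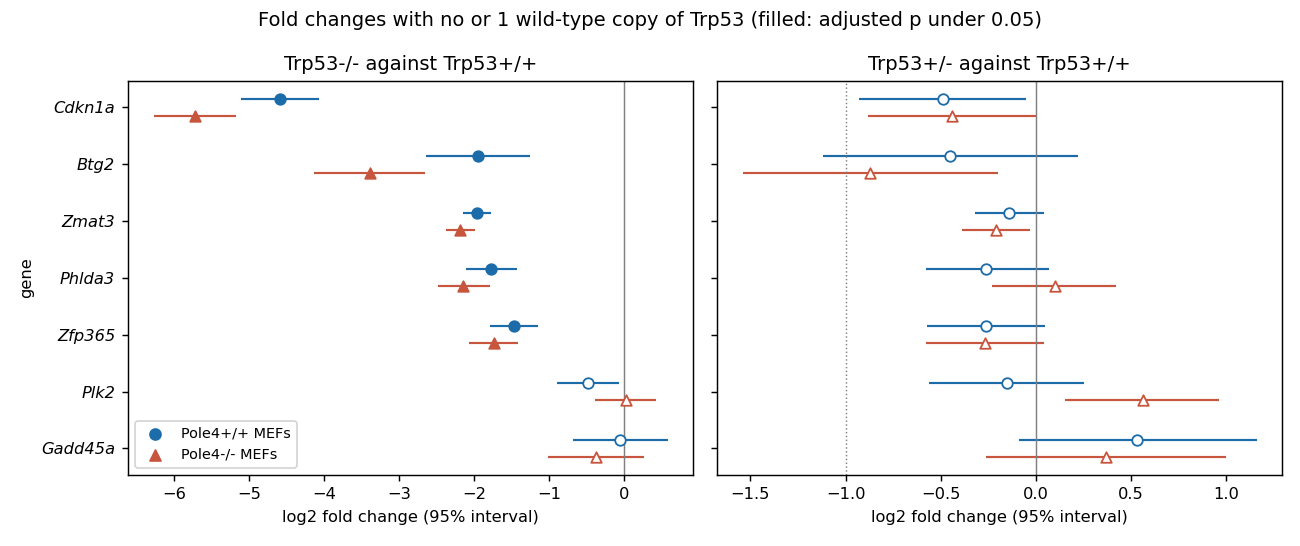
Log2 fold change of each gene with its 95% interval for *Trp53*-/- (left) and *Trp53*+/- (right) against *Trp53*+/+, in *Pole4*+/+ (circles) and *Pole4*-/- (triangles) MEFs; filled symbols mark adjusted p under 0.05, and the dotted line at -1 marks a loss of 50% of the level. The left panel shows 5 genes called in both backgrounds, and the right panel shows none called.

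Measured per kilobase of annotated exon, the level with intact *Trp53* and *Pole4* was highest for *Cdkn1a*, at 68.1 ± 2.78 CPM per kb (SD, n = 3), followed by *Phlda3* at 51.4 ± 4.04 and *Plk2* at 48.5 ± 6.03. The latter pair did not differ beyond their spread. *Btg2* stood at 23.7 ± 3.70 and *Zmat3* at 15.3 ± 0.960, and *Gadd45a* at 5.57 ± 1.59 and *Zfp365* at 4.96 ± 0.388 again overlapped. Without *Trp53* in *Pole4*+/+ MEFs the order was another: *Plk2* led with 34.8 ± 8.54 CPM per kb, *Phlda3* followed with 15.1 ± 3.68, and *Cdkn1a* at 2.77 ± 1.02 lay between *Zmat3* at 3.91 ± 0.0939 and *Zfp365* at 1.77 ± 0.396, within its own spread of the latter.

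The next question was how much of this depends on a single copy. With 1 wild-type copy of *Trp53* none of the 7 genes was called in either background by edgeR, where 5.12% of all genes were called in *Pole4*-/- (2.16% lower, 2.96% higher) and 0.904% in *Pole4*+/+ MEFs (0.407% lower, 0.496% higher). At an unadjusted p under 0.05 there were 4 in *Pole4*-/- (3 lower, 1 higher) and 1 in *Pole4*+/+ MEFs (lower), among 4082 and 1610 of all genes. DESeq2 called 2 and 0 of the 7 (13.7% and 2.62% of all genes), and limma voom 4 and 1 (24.6% and 7.13% of all genes). Both tools called *Plk2* higher in *Pole4*-/- MEFs, and the other genes they called were lower. *Cdkn1a* was at 71.1% (95% interval 52.5 to 96.5) of its *Trp53*+/+ level in *Pole4*+/+ and at 73.5% (54.3 to 99.7) in *Pole4*-/- MEFs, with adjusted p of 0.396 and 0.189 by edgeR. All 3 *Trp53*+/- libraries were below all *Trp53*+/+ libraries in both. *Btg2* was at 73.4% (46.1 to 117) and 54.8% (34.5 to 87.1). *Zmat3* was at 168, 154 and 155 CPM in *Pole4*+/+ *Trp53*+/- and at 196, 163 and 184 CPM in *Pole4*-/- *Trp53*+/- libraries. This gene, measured most precisely, was at 91.0% (80.3 to 103) and 86.4% (76.2 to 97.9), so that a drop to 50% lay outside its interval in both backgrounds. The same held for *Phlda3*, at 83.7% (66.8 to 105) and 107% (85.5 to 134), for *Zfp365*, at 83.5% (67.5 to 103) and 83.1% (67.1 to 103), and for *Cdkn1a*, but in *Btg2* 50% lay within both intervals.

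*Plk2* in *Pole4*-/- MEFs and *Gadd45a* in both backgrounds had a higher mean in *Trp53*+/- than in *Trp53*+/+ or *Trp53*-/- libraries, without a call by edgeR. *Plk2* was at 232, 238 and 218 CPM in *Pole4*-/- *Trp53*+/- MEFs, above all *Pole4*-/- *Trp53*+/+ libraries, with a log2 fold change of 0.56 (SE 0.19, edgeR adjusted p = 0.0935). DESeq2 called it at the same size (adjusted p = 0.0415), as did limma voom at 0.62 (adjusted p = 0.0112). *Gadd45a* was at 15.3, 14.4 and 13.0 CPM in *Pole4*+/+ *Trp53*+/- MEFs, above the *Trp53*+/+ libraries, with a log2 fold change of 0.53 (SE 0.29, edgeR adjusted p = 0.606). That group was male and the *Trp53*+/+ libraries female, and with sex as a term over all genotypes the value was 0.73 (adjusted p = 0.618). In *Pole4*-/- *Trp53*+/- MEFs *Gadd45a* was at 11.5, 14.4 and 14.1 CPM and overlapped with the *Trp53*+/+ libraries (0.37, SE 0.30, adjusted p = 0.447).

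For the 5 genes that fell, the level in a *Trp53*+/- library was also placed between the mean of *Trp53*-/- (0%) and of *Trp53*+/+ libraries (100%), which gives the share of the TRP53-dependent level that the remaining copy kept. *Cdkn1a* kept 69.9 ± 8.77% (SD over 3 *Trp53*+/- libraries) in *Pole4*+/+ and 73.0 ± 11.9% in *Pole4*-/- MEFs. *Btg2* kept 64.2 ± 3.39% and 50.2 ± 12.2%, the lowest mean shares of the 5 in both. In *Pole4*+/+ MEFs its libraries overlapped with those of *Cdkn1a*, and its share was 73.1% without *Pole4*+/+ *Trp53*+/+ replicate 3. *Zmat3* kept 87.8 ± 5.99% and 82.5 ± 10.2%, and *Zfp365* 74.3 ± 9.21% and 75.7 ± 8.62%. *Phlda3* kept 76.8 ± 15.9% in *Pole4*+/+ and 109 ± 7.67% in *Pole4*-/- MEFs, where all 3 *Trp53*+/- libraries reached the wild-type mean. These SDs leave out the error of the 2 means that set the scale. In *Pole4*+/+ MEFs the *Trp53*+/- libraries were male and both groups that set the scale were female. Sex and the lost copy cannot be told apart in the *Pole4*+/+ shares. Scaling by library totals, which shifted the median gene by 0.30 on the log2 scale in this comparison of *Pole4*-/- MEFs, moved the shares there to 91.5% for *Cdkn1a*, 63.3% for *Btg2*, 109% for *Zmat3*, 140% for *Phlda3* and 104% for *Zfp365*.

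**Figure D3:**
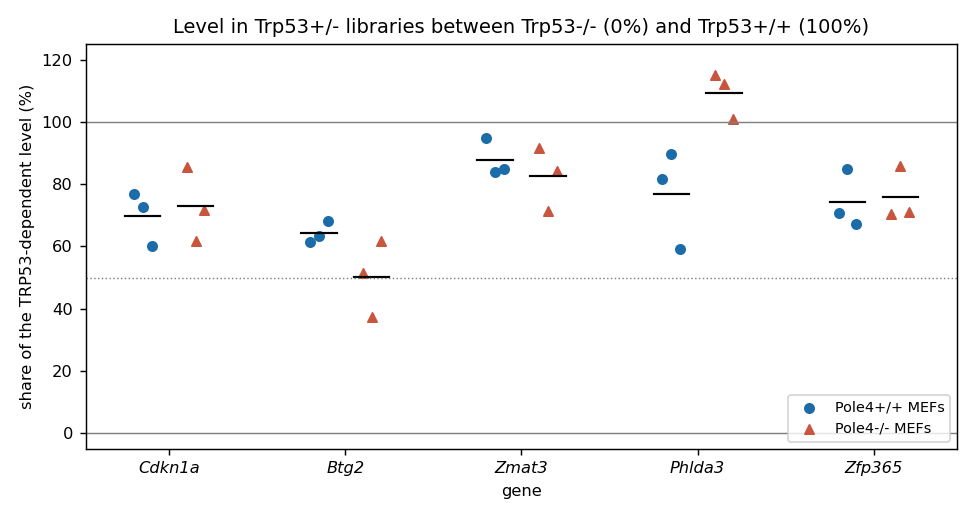
Share of the TRP53-dependent level (%) in each *Trp53*+/- library for the 5 genes that fell without *Trp53*, with 0% at the mean of *Trp53*-/- and 100% at the mean of *Trp53*+/+ libraries of the same *Pole4* background; bars are means of 3 libraries and the dotted line marks 50%. The means run from 50.2% (*Btg2*) to 109% (*Phlda3*) in *Pole4*-/- and from 64.2% (*Btg2*) to 87.8% (*Zmat3*) in *Pole4*+/+ MEFs.

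Loss of the remaining copy was measured as *Trp53*-/- against *Trp53*+/-, which shares its libraries with both comparisons above. In *Pole4*-/- MEFs the 5 genes were called lower, as were 5.91% of all genes (6.58% higher, 12.5% in all), and in *Pole4*+/+ MEFs 4 were, as were 0.509% of all genes (0.07% higher, 0.579% in all). The log2 fold change of *Cdkn1a* for this step was -4.10 (SE 0.24, edgeR adjusted p = 5.06e-08) in *Pole4*+/+ and -5.28 (SE 0.25, adjusted p = 4.97e-09) in *Pole4*-/- MEFs. *Btg2* missed the call in *Pole4*+/+ MEFs at -1.50 (SE 0.32, adjusted p = 0.0575). It was called there by DESeq2 (adjusted p = 0.000325) and limma voom (adjusted p = 0.00388), which called 1.32% and 7.29% of all genes, and by edgeR without *Pole4*+/+ *Trp53*-/- replicate 1, at -2.06 (adjusted p = 0.00276, with 9.41% of all genes called). *Plk2* and *Gadd45a* were not called by edgeR in *Pole4*-/- MEFs, where every *Trp53*-/- library lay below every *Trp53*+/- library, at -0.54 (SE 0.19, edgeR adjusted p = 0.0772) and -0.74 (SE 0.30, adjusted p = 0.111). DESeq2 (adjusted p = 0.0357), limma voom (adjusted p = 0.0195) and 4 other alternatives called *Plk2* lower, with adjusted p from 0.0364 to 0.0424, and scaling by library totals also called *Gadd45a* (adjusted p = 0.0458). With only the *Pole4*+/+ *Trp53*+/- and *Trp53*-/- libraries in the edgeR fit, 2 genes kept their call, beside 0.123% of all genes called. *Phlda3* (adjusted p = 0.0644) and *Zfp365* (adjusted p = 0.137) lost it.

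The *Pole4* genotype was then compared within each *Trp53* genotype, since loss of *Pole4* disturbs DNA replication. None of the 7 genes was called by edgeR with both *Trp53* copies (3.98% of all genes were, 2.7% lower and 1.29% higher), with 1 copy or with none (0.00637% of all genes in each). Unadjusted p was under 0.05 for 4, 3 and 2 genes in turn, among 4101, 866 and 1636 of all genes. DESeq2 called 1, 0 and 0 of the 7 (12.5%, 0.31% and 0.185% of all genes), and limma voom 4, 1 and 0 (33.5%, 1.58% and 0.00637% of all genes). With both *Trp53* copies, *Cdkn1a* was higher in all 3 *Pole4*-/- libraries than in all *Pole4*+/+ libraries, at 355 ± 11.3 against 242 ± 9.88 CPM (SD, n = 3), a log2 fold change of 0.56 (SE 0.21, edgeR adjusted p = 0.115). *Btg2* (0.84, adjusted p = 0.118) and *Zmat3* (0.26, adjusted p = 0.0806) also lay above without overlap, and *Plk2* lay below (-0.48, adjusted p = 0.134). Limma voom with quality weights called these 4 genes in the same directions, with adjusted p from 0.00201 for *Cdkn1a* to 0.0163 for *Plk2*. *Phlda3* (-0.02), *Zfp365* (0.10) and *Gadd45a* (0.06) overlapped between the genotypes. The share of all genes whose libraries separated without overlap was not counted. In the same comparison edgeR called 13 of 16 proliferation markers lower in *Pole4*-/- MEFs, with a median of -0.87, and all 16 lay below without overlap; their part in the values of the 7 genes was not tested. The *Pole4*+/+ *Trp53*+/+ libraries were female and 2 of the 3 *Pole4*-/- *Trp53*+/+ libraries male, and with sex as a term *Cdkn1a* was at 0.49 (adjusted p = 0.323), *Btg2* at 1.01, *Zmat3* at 0.17 and *Plk2* at -0.27, with 0.0509% of all genes called.

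With 1 *Trp53* copy, *Cdkn1a* was again above in all *Pole4*-/- libraries, at 261 ± 41.7 against 172 ± 20.4 CPM (log2 fold change 0.60, SE 0.21, edgeR adjusted p = 0.684). *Btg2* (0.42, adjusted p = 1), *Phlda3* (0.33, adjusted p = 0.889) and *Plk2* (0.23, adjusted p = 1) also lay above without overlap, *Plk2* on the other side from its place with both copies. The share of all genes that lay apart in this way was not counted here either. The median of the proliferation markers was -0.25 in this comparison. Without *Trp53* the libraries of the 2 *Pole4* genotypes overlapped for all 7 genes, and *Cdkn1a* was at 6.68 ± 1.89 CPM in *Pole4*-/- and at 9.83 ± 3.61 in *Pole4*+/+ MEFs (log2 fold change -0.58, SE 0.23, adjusted p = 0.457).

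Whether loss of *Trp53* acted differently in *Pole4*-/- and *Pole4*+/+ MEFs was tested by an interaction term, and none of the 7 genes was called (0.331% of all genes were, 0.153% with the lower and 0.178% with the higher value in *Pole4*-/- MEFs). Unadjusted p was under 0.05 for 2 of them, among 4453 of all genes. DESeq2 called 2 of the 7 and 13.2% of all genes, and limma voom 1 and 7.59%. The difference of *Cdkn1a* was -1.13 on the log2 scale, with the lower value in *Pole4*-/- MEFs (SE 0.31, 95% interval -1.79 to -0.47, edgeR adjusted p = 0.0616), and the difference of *Btg2* was -1.45 (SE 0.45, -2.41 to -0.48, adjusted p = 0.0779). DESeq2 gave adjusted p of 0.0082 and 0.0219 for the pair. Without *Pole4*+/+ *Trp53*-/- replicate 3 edgeR called both (adjusted p = 0.00901 for *Cdkn1a* and 0.0207 for *Btg2*), but it then called 20.1% of all genes. Without replicate 2 it called *Btg2* (adjusted p = 0.0466) and 12.3% of all genes. The interval of *Zmat3* ran from -0.48 to 0.04, and those of *Phlda3*, *Zfp365*, *Plk2* and *Gadd45a* also held 0. For the *Trp53*+/- effect no gene of all those tested was called (0%), and among the 7 the unadjusted p was under 0.05 for *Plk2* alone, with a difference of 0.71 (SE 0.27, adjusted p = 0.491); neither DESeq2 nor limma voom called any of the 7.

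The 7 genes were set beside lists of related genes in the same comparisons. Of 48 other TRP53 targets, 36 were lower and 2 higher without *Trp53* in *Pole4*-/- MEFs, with a median log2 fold change of -1.58, and 28 were lower and none higher in *Pole4*+/+ MEFs, with a median of -0.94. In the latter comparison 2.23% of all genes were called higher, and the unadjusted p was under 0.05 for 1 of the 48 in that direction. The lowest were *Eda2r*, a receptor of the TNF receptor family (-6.90 in *Pole4*-/- and -6.10 in *Pole4*+/+ MEFs), *Trp53inp1*, a nuclear cofactor of TRP53 (-5.34 and -3.51), and *Dglucy*, a mitochondrial D-glutamate cyclase (-5.28 and -4.39). Without *Pole4*+/+ *Trp53*-/- replicate 1 the *Pole4*+/+ values were -6.96 for *Eda2r*, -5.08 for *Trp53inp1* and -5.03 for *Dglucy*, and *Trp53inp1*, which ranged from 1.29 to 16.3 CPM in that group, lost its call with only the genotypes compared (adjusted p = 0.165). *Tigar*, a regulator of glycolysis (0.41), and *Trim71*, an RNA-binding ubiquitin ligase of stem cells (1.06), were the 2 called higher in *Pole4*-/- MEFs, and the call of *Tigar* was lost on leaving out any of 5 of the 6 libraries compared or on scaling by library totals (adjusted p = 0.177). With only the genotypes compared in the fit, the *Pole4*+/+ count was 10. The share of all genes called in that fit is not given. In *Trp53*+/- MEFs 2 of the 48 were called lower in each background, where 2.16% of all genes were in *Pole4*-/- and 0.407% in *Pole4*+/+ MEFs. They are named here after their values were seen: *Perp* (-1.88) and *Polk* (-0.39) in *Pole4*-/- MEFs, *Mdm2* (-0.56) and *Tnfrsf10b* (-0.59) in *Pole4*+/+ MEFs.

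Of 19 paralogs of the 7 genes, 15 were tested. None was called without *Trp53* in *Pole4*+/+ MEFs by edgeR, with an unadjusted p under 0.05 for 5, and in *Pole4*-/- MEFs 3 were lower and 4 higher, where 20.8% and 21.8% of all genes were. *Cdkn1b*, which encodes the CDK inhibitor p27, had log2 fold changes of 0.05 (SE 0.13, edgeR adjusted p = 0.78) in *Pole4*-/- and 0.20 (SE 0.13, adjusted p = 0.451) in *Pole4*+/+ MEFs, and *Cdkn1c*, which encodes p57, of 0.46 (SE 0.59) and 1.38 (SE 0.59, adjusted p = 0.22). Upper-quartile scaling turned the sign of *Cdkn1b* in *Pole4*-/- MEFs, to -0.04. Without *Trp53* in *Pole4*-/- MEFs *Btg1* (-0.77, edgeR adjusted p = 0.000122) and *Tob1* (-1.45, adjusted p = 0.000496), relatives of *Btg2*, fell. The mitotic kinase *Plk1* (1.75, edgeR adjusted p = 3.14e-05) and the centriole kinase *Plk4* (1.58, adjusted p = 8.66e-06), relatives of *Plk2*, rose. The other 3 called there, named after their values were seen, were *Zmat1* (-0.86), *Phlda1* (1.08) and *Tob2* (0.45). *Tob2* is also a relative of *Btg2* but rose. In *Pole4*+/+ MEFs without *Pole4*+/+ *Trp53*-/- replicate 1, 3 paralogs were called lower and 2 higher. Among them were *Btg1* (-0.57), *Tob1* (-1.02), *Plk1* (0.81) and *Plk4* (0.65), while *Cdkn1c* was at 0.35 (edgeR adjusted p = 0.721). The share of all genes called without that library is not given.

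All 16 proliferation markers rose without *Trp53* in *Pole4*-/- MEFs, by a median of 1.67 on the log2 scale, in a comparison that called 21.8% of all genes higher. *Top2a*, the topoisomerase of chromosome untangling (1.68, edgeR adjusted p = 2.71e-06), the mitotic cyclin *Ccnb2* (1.35, adjusted p = 4.71e-06) and the checkpoint kinases *Bub1* (1.80) and *Aurkb* (1.68) were the 4 with the lowest p. In *Pole4*+/+ MEFs 4 of the 16 were called higher, as were 2.23% of all genes, with a median of 0.60: *Ccnb2* (0.74), *Top2a* (0.58), *Aurkb* (0.63) and *Ccna2* (0.76). That count rose to 16 without *Pole4*+/+ *Trp53*-/- replicate 1 and fell to 1 or 2 without any other single library of that comparison. It was 11 with DESeq2, 16 with limma voom and 0 with only the genotypes compared. The share of all genes called in each of these fits is not given, so the moves say nothing about these markers in particular. *Pole4*-/- *Trp53*+/- MEFs had 10 of the 16 called higher and *Pole4*+/+ *Trp53*+/- MEFs none (unadjusted p under 0.05 for 1), where 2.96% and 0.496% of all genes were. The part that a changed share of dividing cells had in the levels of the 7 genes was not tested. In bulk RNA, fewer cells with a transcript and less of it per cell cannot be told apart.

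**Figure D4:**
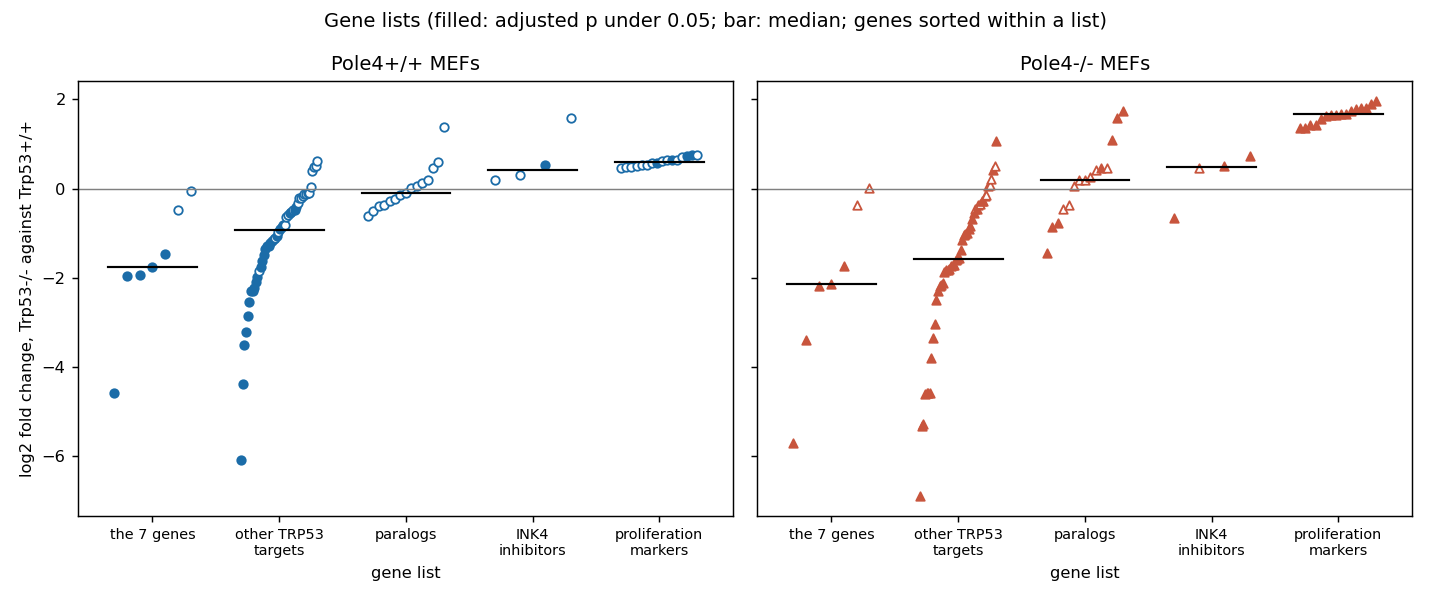
Log2 fold change of *Trp53*-/- against *Trp53*+/+ for each gene of 5 lists in *Pole4*+/+ (left) and *Pole4*-/- MEFs (right), sorted within a list; filled symbols mark adjusted p under 0.05 and bars the list medians. The medians are -1.77 and -2.14 for the 7 genes, -0.94 and -1.58 for the other TRP53 targets, and 0.60 and 1.67 for the proliferation markers.

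Markers of other cell types were followed over the same groups. Of 6 skeletal muscle markers tested, *Acta1* and *Des* were called lower without *Trp53* in both backgrounds, and none was called higher. Not all 6 fell. Their median log2 fold change was 1.07 (highest 1.88) in *Pole4*+/+ and -0.64 (highest 2.03) in *Pole4*-/- MEFs. The summed level of 8 skeletal muscle markers, made up mainly of *Acta1* and *Des*, was 114 to 153 CPM in *Pole4*+/+ *Trp53*+/+ and 142 to 151 in *Pole4*-/- *Trp53*+/+ libraries, against 44.6 to 50.9 and 53.5 to 68.5 in *Trp53*-/- libraries. *Myod1*, *Myog* and *Myf5*, which define the lineage, were at most 1.45 CPM in any library. The 6 neuronal markers summed to 64.9 to 81.7 CPM in *Pole4*-/- *Trp53*+/+ and to 113 to 135 in *Pole4*-/- *Trp53*-/- libraries, all but a few CPM of it from *Stmn2* and *Tubb3*, with *Rbfox3* at 0 in 17 libraries. The 6 epithelial markers summed to 2.06 to 2.67 and 4.40 to 20.2 CPM in the same groups, with *Krt8* and *Krt18* higher. In these *Pole4*-/- groups the fibroblast markers summed to 14600 to 19100 and 7990 to 10400 CPM. There edgeR called 5 of the 9 lower and 1 higher, beside 20.8% and 21.8% of all genes. In *Pole4*+/+ MEFs none of the 9 was called lower. Their sums there were 9500 to 13900 CPM in *Trp53*+/+ and 10700 to 15600 in *Trp53*-/- libraries. *Pdgfra* rose in both backgrounds. The endothelial markers summed to at most 6.17 CPM in any library, with *Cldn5* at 0 in all, and none was called. In *Pole4*+/+ MEFs no epithelial, neuronal or macrophage marker was called by edgeR. The part of these markers in the levels of the 7 genes was not tested.

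The genes whose profiles over the 18 libraries were nearest to each of the 7 were found by the root mean square distance of centred log2 CPM, a measure of likeness with no test. *Cdkn1a* was nearest to *Dglucy* (0.302) and *Inka2* (0.462), *Btg2* to *Ak1* and *Trim7* (0.357 each), and *Zfp365* to *Bbc3* (0.199), the gene of the apoptotic protein PUMA, and *Orai2* (0.214). *Zmat3* and *Phlda3* shared the thiamine transporter *Slc19a2* as nearest gene (0.174 and 0.194) and were each other's second (0.255). *Gadd45a* was nearest to *Aldh1l2* (0.189) and *Pck2* (0.201), a mitochondrial folate enzyme and a gluconeogenic enzyme, and *Plk2* to *Tpd52* (0.171) and *Adgre5* (0.193). These distances are to be read against the spread of each gene about its own mean, a root mean square of 2.39 for *Cdkn1a* and of 0.325 for *Plk2*.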

How the data were processed

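Per the labels and the methods of the study, the authors used Trim Galore for trimming, STAR 2.5.2 for alignment to GRCm38 with Ensembl annotation, and RSEM 1.3.0 for counting per gene. The deposited values are RSEM's expected counts, before normalization, and 6.14% are not whole because RSEM splits ambiguous reads, which makes genes with near-identical copies less certain. They were rounded. Symbols and positions came from GENCODE M21 (GRCm38), which matched 51719 of 51912 identifiers.

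Genes passing edgeR's filterByExpr (15710) were tested with edgeR 4.0.16 in R 4.3.3: scaling was by TMM, the model gave each genotype its own mean, all 18 libraries entered, and tests were robust quasi-likelihood F-tests, two-sided, with Benjamini-Hochberg adjustment over all genes (12 residual degrees of freedom). log2 CPM used a prior count of 2. Alternatives were DESeq2 1.42.0, limma 3.58.1 (voom), other scalings and filters, sex or replicate number as a term, only the compared genotypes, and each library left out. The procedure was tested on simulated data.

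The 7 genes and all lists were chosen with earlier results of these data known. Genes outside the 7 were named by rule: in *Trp53*-/- against *Trp53*+/+, the 3 lowest called TRP53 targets and any called higher, up to 4 called genes of each other list by lowest p, *Cdkn1b* and *Cdkn1c*, and the 2 nearest profiles of each gene; marker genes were named beside their sums after their values were seen. *Cdkn2a*, which was not called, was named outside this rule, as were the genes marked above as named after their values were seen. The labels give replicate numbers but no pairing, so replicate number entered only as an alternative.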

Additional observations from a re-analysis of the deposited data

How the results depend on the processing

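The count of 5 genes lower without *Trp53* stood under every alternative in *Pole4*-/- MEFs, with *Cdkn1a* between -5.97 and -5.57 on leaving out a library. In *Pole4*+/+ MEFs *Btg2* was lost under 2 alternatives, given above. For these comparisons the share of all genes called lower is given for the main fit only, 20.8% in *Pole4*-/- and 2.37% in *Pole4*+/+ MEFs. Calls near the threshold moved; the share of all genes called in the same fit stands in parentheses. For *Trp53*+/- the count of called genes in *Pole4*-/- MEFs was 2 with DESeq2 (13.7%), 1 with total scaling (13.8%), 4 with voom (24.6%) and 2 with only the compared genotypes (18.2%). Each of these counts holds *Plk2*, which was higher, and the other genes in them were lower. In *Pole4*+/+ MEFs it was 1 with voom (7.13%) and 1 with only the compared genotypes (1.54%). For *Trp53*-/- against *Trp53*+/- in *Pole4*+/+ MEFs it was 2 with only the compared genotypes (0.123%) and 5 with DESeq2 (1.32%) and voom (7.29%), and in *Pole4*-/- MEFs 6 with DESeq2 (21.3%), voom (25.9%), upper-quartile scaling (13.4%), sex (11.3%) and only the compared genotypes (16.6%) and 7 with total scaling (7.97%), against 5 (12.5%). For *Pole4*-/- against *Pole4*+/+ in *Trp53*+/+ MEFs it was 1 with DESeq2 (12.5%), 1 with total scaling (14.3%), 4 with voom (33.5%) and 2 with only the compared genotypes (24.1%), and in *Trp53*+/- MEFs 1 with voom (1.58%). For the interaction it was 2 with DESeq2 (13.2%), 1 with a mean of at least 50 counts (4.23%), 1 with voom (7.59%) and 0 to 2 on leaving out a library (0% to 20.1%). Total scaling moved the *Pole4*-/- shares to 91.5 (*Cdkn1a*), 63.3 (*Btg2*), 109 (*Zmat3*), 140 (*Phlda3*) and 104% (*Zfp365*). Shares of *Btg2* on leaving out a library ran from 43.1 to 63.9% in *Pole4*-/- and from 60.4 to 73.1% in *Pole4*+/+ MEFs; those of *Plk2* and *Gadd45a* are undefined without a called change. The causes were not tested.

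The labels do not say that replicate numbers pair the samples. Over 45 pairs of same-numbered libraries r ran from -0.26 to 0.59 (median 0.10, 22 over 0.1), which is short of every pair, while 13 of 18 libraries correlated best with their own number, a hint of pairing from the data. With the replicate block the interaction called 1 gene (*Cdkn1a*, -1.13, edgeR adjusted p = 0.0472, with 3.49% of all genes called). *Btg2* was called in *Trp53*-/- against *Trp53*+/- *Pole4*+/+ MEFs (-1.56, edgeR adjusted p = 0.019), and 2 proliferation markers were called in *Pole4*+/+ MEFs. For these last calls the share of all genes is not given.

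Signs turned only for changes that edgeR did not call in the main fit. Some of these were called under other alternatives. *Zmat3* between *Pole4* genotypes with both *Trp53* copies was called higher by DESeq2 (adjusted p = 0.0284). *Zfp365* in *Pole4*-/- *Trp53*+/- MEFs was called lower by limma voom (adjusted p = 0.0383). In *Trp53*-/- against *Trp53*+/+, *Plk2* in *Pole4*-/- MEFs was -0.03 with total and -0.08 with upper-quartile scaling, 0 without ribosomal RNA genes, -0.03 with a mean of at least 50 counts and -0.10 with sex, *Gadd45a* in *Pole4*+/+ MEFs was 0.02 with total scaling, and *Cdkn1b* in *Pole4*-/- MEFs was -0.04 with upper-quartile scaling. In *Trp53*+/- against *Trp53*+/+, *Zmat3* was 0.10 and *Zfp365* 0.04 with total scaling in *Pole4*-/- MEFs, and *Plk2* 0.19 with sex in *Pole4*+/+ MEFs. Between *Pole4* genotypes with both *Trp53* copies, total scaling gave *Gadd45a* -0.20, *Zmat3* -0.04 and *Zfp365* -0.21, *Gadd45a* was -0.01 with no filter and -0.03 with voom, and *Phlda3* was 0.03 with upper-quartile scaling, 0.02 with a mean of at least 50 counts and 0.02 with voom. Without *Trp53*, *Plk2* was -0.37 with total scaling, -0.01 with upper-quartile scaling and -0.19 with voom, and *Zmat3* -0.38 with total scaling and -0.01 with sex. For the difference of the *Trp53*+/- effect, total scaling gave *Gadd45a* 0.12, *Zmat3* 0.25 and *Zfp365* 0.32, *Zfp365* was 0 without ribosomal RNA genes, 0.06 with no filter and 0.14 with sex, *Zmat3* was 0.12 with sex, and *Cdkn1a* was 0 with upper-quartile scaling.

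On leaving out a library, signs also turned within these ranges: in *Trp53*-/- against *Trp53*+/+, *Plk2* -0.08 to 0.21 and *Cdkn1b* -0.03 to 0.13 in *Pole4*-/- MEFs, and *Gadd45a* -0.30 to 0.21, *Cdkn1b* -0.03 to 0.29 and *Cdkn2b* -0.18 to 0.41 in *Pole4*+/+ MEFs. Between *Pole4* genotypes they were *Gadd45a* -0.15 to 0.26 and *Phlda3* -0.09 to 0.04 with both *Trp53* copies, *Gadd45a* -0.16 to 0.01 with 1 copy, and *Plk2* -0.17 to 0.20 and *Zmat3* -0.04 to 0.10 with none. For the difference of the *Trp53*+/- effect they were *Cdkn1a* -0.06 to 0.16, *Gadd45a* -0.36 to 0.05 and *Zfp365* -0.07 to 0.06. Alternatives for genes outside the 7 were added after seeing the data.

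Levels were low for *Gadd45a*, at 4.91 to 15.3 CPM, and in *Trp53*-/- libraries for *Cdkn1a*, at 5.17 to 12 CPM, and *Zfp365*, at 6.56 to 11 CPM. What this cost in precision was not tested, and the SE of *Zfp365* without *Trp53* was 0.15 in both backgrounds.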

Other observations

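The INK4 genes encode the other family of CDK inhibitors. Without *Trp53* in *Pole4*-/- MEFs *Cdkn2c* (log2 fold change 0.73, SE 0.18, edgeR adjusted p = 0.0039) and *Cdkn2d* (0.50, SE 0.14, adjusted p = 0.008) rose and *Cdkn2b* fell (-0.67, SE 0.22, adjusted p = 0.0213). In *Pole4*+/+ MEFs *Cdkn2d* rose (0.53, SE 0.13, adjusted p = 0.0315), and *Cdkn2a*, which encodes both p16 and the TRP53 activator ARF, was at 1.59 (SE 0.50, adjusted p = 0.0893), with levels from 21.3 to 140 CPM in the 3 *Pole4*+/+ *Trp53*-/- libraries against 19.7 to 25.2 CPM in *Pole4*+/+ *Trp53*+/+ libraries. The calls of *Cdkn2b*, *Cdkn2c* and *Cdkn2d* were all lost on scaling by library totals. That of *Cdkn2b* was also lost without any of 4 of the 6 libraries compared and with no filter (adjusted p = 0.0613), and that of *Cdkn2d* in *Pole4*+/+ MEFs without any of 3 of the 6, with no filter (adjusted p = 0.0816) and with only the genotypes compared (adjusted p = 0.278). In *Trp53*+/- MEFs edgeR called no INK4 gene in either background, and none had an unadjusted p under 0.05.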
